A study of Canis lupus familiaris with 12 samples.

Results

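The Snail transfectant is an MDCK line that was made to express Snail and was set against MDCK-CMV control cells. MDCK is an epithelial cell line from dog kidney. It grows as cohesive sheets held together by E-cadherin, and it is widely used to study the switch from an epithelial to a migratory, mesenchymal state. Of the 12 arrays of the study, 4 carry Snail RNA, 4 carry RNA of a Slug transfectant and 4 carry RNA of an E47 transfectant, each hybridised together with RNA of the MDCK-CMV control. The 4 Snail arrays come from 2 numbered samples, Snail 1 and Snail 2, each hybridised once with the transfectant in Cy5 and once with it in Cy3. They were chosen by their titles, and no measured value was used to pick them. The labels give no construct, no species of the introduced gene, no time after transfection, and no word on whether a line was 1 clone or whether the numbered samples were separate cultures. The p-values below therefore measure only the spread between these samples, which may be technical.

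Snail, the product of SNAI1, is a zinc finger transcription factor that binds E-box sequences and recruits repressors. Its best known target is CDH1, the gene of E-cadherin, and its activity in epithelial cells is known to go with loss of junctions, gain of matrix and cytoskeletal proteins, and motility. Slug, the product of SNAI2, belongs to the same family, while E47 comes from TCF3, has a helix-loop-helix domain and binds related sites.

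Every value is a log2 ratio, so 1 unit is a 2-fold difference. The array has 13056 probes of human cDNA clones, and 10654 to 11683 of them had a value on a given Snail array. Dog RNA was read by human clones, and whether a clone also reads related dog transcripts was not tested. Spots were averaged per clone and clones per gene symbol, and 3768 genes had a value on all 4 Snail arrays. Both arrays of each numbered sample were joined by their mean into 1 replicate, giving 2 replicates. Because the values are ratios, they do not show how strongly a gene was expressed, and the presence of epithelial markers in these cells cannot be read from them.

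The direction of the ratios is assumed, not settled. As deposited, the 2 arrays of Snail 1 correlated with each other with r = 0.50 over all probes, and those of Snail 2 with r = 0.68, although the transfectant was in opposite dyes. Arrays of Snail 1 against arrays of Snail 2 gave -0.59, -0.51, -0.47 and -0.37. The sign thus followed the sample number and not the dye, and the labels do not say which channel is the numerator. Both Snail 2 arrays were multiplied by -1, so that CDH1 lay below the control on the arrays of both samples. After that, genes on arrays of different samples correlated with r between 0.44 and 0.61. CDH1 set the sign, so its low value is no finding, although it stands among the lower genes in the counts below. If the sign were turned on all 4 arrays, every rise reported here would be a fall of the same size and every fall a rise.

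SNAI1 itself was read by 2 spots of 1 clone. SNAI1 had log2 ratios of 0.87 on Snail 1 Cy5, 1.20 on Snail 1 Cy3, 2.94 on Snail 2 Cy5 and 1.80 on Snail 2 Cy3. All 4 arrays lay above 0, and both arrays of Snail 2 lay above both arrays of Snail 1. The mean of the 2 replicates was 1.70 ± 0.26 (SE of the limma fit), or 3.26-fold, with an adjusted p of 0.0092 from limma. Every SE given here comes from a spread pooled over all 3 transfectants. The 2 Snail replicates of SNAI1 alone had an SD of 0.95. SNAI1 in the other transfectants had replicate values of 0.70 and 0.64 in Slug and of 0.19 and 0.15 in E47, and Snail exceeded Slug by 1.04 (adjusted p = 0.105) and E47 by 1.53 (adjusted p = 0.0709), neither of which passed. The call of SNAI1 against the control was lost without Snail replicate 2, at 1.04 (adjusted p = 0.0573). Whether the human SNAI1 clone reads the introduced gene, the dog gene or both is not given.

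CDH1 was read by 6 spots of 3 clones, and the clones disagreed. The first clone had means of -2.89, -2.36, -3.34 and -2.92 on the 4 arrays in the order given for SNAI1. The second clone had -4.45, -3.44, -4.36 and -2.05, and the third clone had 0.45, -0.02, 0.01 and 0.48. The first and second clones were far below the control on every array, and the third lay near or above 0 throughout. In the second clone, 1 of its 2 spots stood apart on Snail 2 Cy3, at 0.20 beside -4.29 in the other spot. The average over the 3 clones was -2.07, which understates what the first 2 clones read.

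**Figure D1:**
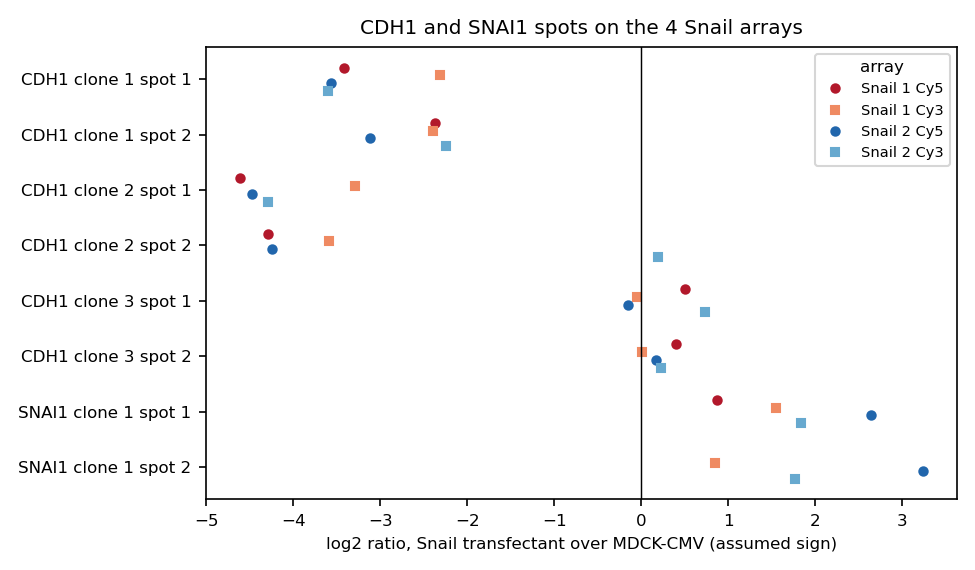
Log2 ratio of Snail transfectant over MDCK-CMV control (horizontal axis, assumed sign) for each spot of CDH1 and SNAI1 (rows), with 1 point per array. The 4 spots of CDH1 clones 1 and 2 lie left of 0 apart from 1 point at 0.20, the spots of clone 3 lie near 0, and all SNAI1 points lie right of 0.

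The Snail transfectant was set against the control to find transcripts whose level differed between them. Of 3768 genes tested, 272 (7.22%) passed an adjusted p of 0.05, and 917 had an unadjusted p under 0.05. Among the 272, 81 (2.15% of the genes tested) were higher in Snail and 191 (5.07%) were lower. With the sign turned the split is 191 higher and 81 lower. The higher genes had a median log2 ratio of 0.94 and the lower genes of -0.82, against -0.053 for all genes tested. At least 2-fold changes were seen in 91 genes (2.42%), 35 higher (0.929%) and 56 lower (1.49%). At least 4-fold changes were seen in 4 genes that were higher and 10 that were lower. Of the 272, 270 lay on the same side of 0 on all 4 arrays. The other 2 were MAL, with 0.04 on Snail 2 Cy3, and CARNMT1, with 0.18 on Snail 1 Cy3, both below 0 elsewhere.

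The replicates did not contribute equally to the rises. Their values correlated with r = 0.65 over all genes, a description since genes of 1 sample share their arrays, and the median absolute difference was 0.225. Of the 81 higher genes, 71 had the larger value in replicate 2, with medians of 0.71 in replicate 1 and 1.09 in replicate 2. Of the 191 lower genes, 100 were lower in replicate 2, with medians of -0.81 and -0.82. Without Snail replicate 2 the count of called genes was 34, of which 2 were higher, and without Snail replicate 1 it was 105, of which 46 were higher.

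**Figure D2:**
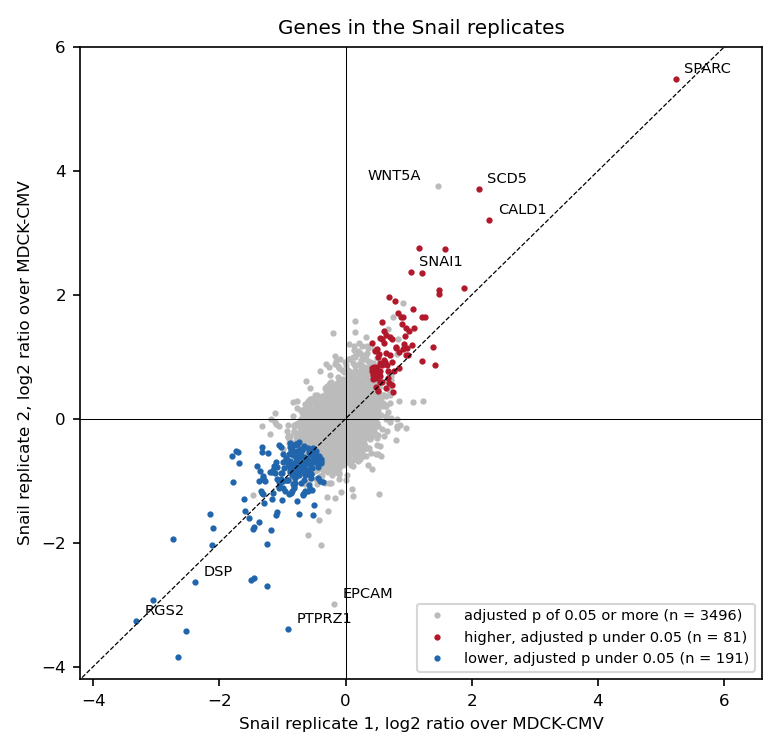
Log2 ratio over MDCK-CMV in Snail replicate 2 (vertical axis) against Snail replicate 1 (horizontal axis) for the 3768 genes tested, with the line of equal values dashed. The 81 higher genes (red) lie mostly above the line, the 191 lower genes (blue) lie on both sides of it, and EPCAM and WNT5A (grey) did not pass although they are far from 0.

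The steepest rise was in SPARC, a secreted glycoprotein that binds collagen. SPARC had log2 ratios of 5.32, 5.15, 5.64 and 5.32 on Snail 1 Cy5, Snail 1 Cy3, Snail 2 Cy5 and Snail 2 Cy3. The 4 arrays lay within 0.5 of each other, and no other gene tested reached them. The mean was 5.36 ± 0.88 (SE), or 41.1-fold, with an adjusted p of 0.0119. The SE is large because it pools the spread of all 3 transfectants, and SPARC had replicate values of 4.17 and -0.67 in Slug, against an SD of 0.17 over the 2 Snail replicates. Its call was lost without Snail replicate 1 (adjusted p = 0.0994) and without Snail replicate 2 (adjusted p = 0.154).

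Other rises among matrix and cytoskeletal genes were smaller. CALD1, the actin-binding protein caldesmon, had 2.75, 1.81, 3.37 and 3.04 on the 4 arrays, a mean of 2.74 ± 0.52 (SE; adjusted p = 0.0192). CALD1 lost its call without Snail replicate 1 (adjusted p = 0.0941) or 2 (adjusted p = 0.25), and its replicates in Slug were 1.96 and -0.64. LUM, the small proteoglycan lumican, had 1.84, 1.30, 3.78 and 1.70, with Snail 2 Cy5 well above the other arrays, and a mean of 2.16 ± 0.26 (adjusted p = 0.00376). The most even of these was COL1A2, a chain of type I collagen. COL1A2 had 1.97, 1.78, 1.91 and 2.31, a mean of 1.99 ± 0.23 (3.98-fold; adjusted p = 0.00373). MSN, the membrane and actin linker moesin, had 0.76 and 0.63 on the arrays of Snail 1 but 2.16 and 1.76 on those of Snail 2, a mean of 1.33 ± 0.28 (adjusted p = 0.0304).

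A further group of rises has roles in lipids, signalling and secretion. SCD5, a desaturase that makes monounsaturated fatty acids, had 1.52, 2.71, 3.59 and 3.82 on the 4 arrays, a mean of 2.91 ± 0.38, or 7.51-fold (adjusted p = 0.00531). RARRES2, the secreted chemoattractant chemerin, had 1.02, 1.41, 2.78 and 1.91, a mean of 1.78 ± 0.23 (adjusted p = 0.00506). PTPRM, a receptor tyrosine phosphatase that binds its like on neighbouring cells, had 1.32, 1.00, 2.84 and 2.68, a mean of 1.96 ± 0.33 (adjusted p = 0.012). In each of these 3 genes both arrays of Snail 2 lay above both arrays of Snail 1. The rest of the 15 largest rises, beside SNAI1, had means from 1.78 down to 1.34 and were MLF1, ANXA5 (a calcium-dependent lipid-binding protein), GHR (the growth hormone receptor), RABAC1 (a Rab-binding membrane protein), PPIB (an isomerase that aids collagen folding) and RAI14 (an actin-associated protein). MLF1 was fitted without E47 replicate 1 and GHR without Slug replicate 1, which had no value. Without Snail replicate 2, all of the 15 largest rises except LUM and RARRES2 lost their call, and without Snail replicate 1, 4 of them did, namely SPARC, CALD1, GHR and RAI14.

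The steepest fall was in RGS2. RGS2, which speeds the shut-off of G protein alpha subunits, had -3.26, -3.38, -3.32 and -3.20 on the 4 arrays. Its arrays differed by less than 0.2, and its mean of -3.29 ± 0.18 (SE) is a 9.78-fold lower level (adjusted p = 1.93e-04). SPP1, the secreted phosphoprotein osteopontin, had -3.37, -1.95, -3.79 and -3.91, with Snail 1 Cy3 apart from the other 3, and a mean of -3.25 ± 0.28 (adjusted p = 0.00173). FXYD3, a small regulator of the sodium pump, had -3.31, -2.81, -3.88 and -1.96, a mean of -2.99 ± 0.24 (adjusted p = 0.00136). IL1RN, the secreted antagonist of the interleukin-1 receptor, had -2.59, -2.46, -3.71 and -3.14, a mean of -2.97 ± 0.26 (adjusted p = 0.00173). All 4 of these genes were at least 2-fold down on every array, the values closest to 0 being the -1.95 of SPP1 and the -1.96 of FXYD3. Under the assumed signs they were low in the other transfectants too. Their means ran from -3.78 to -2.40 in Slug and from -3.51 to -2.15 in E47.

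DSP, the desmosomal linker to intermediate filaments, had the smallest adjusted p of all genes. Its log2 ratios were -2.83, -1.94, -3.04 and -2.24, and its mean was -2.51 ± 0.12, or 5.7-fold lower (adjusted p = 1.72e-04). TFF1, a trefoil peptide secreted by mucosal epithelia, had -2.70, -2.77, -2.35 and -1.54, a mean of -2.34 ± 0.34 (adjusted p = 0.00691). PTPRZ1, a receptor phosphatase that binds pleiotrophin, was uneven, at -1.02 and -0.79 on the arrays of Snail 1 and -3.04 and -3.75 on those of Snail 2. Its mean of -2.15 ± 0.52 only just passed (adjusted p = 0.0483), and without Snail replicate 2 it was -0.91 (adjusted p = 0.397). TFF1 lost its call without either Snail replicate.

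Further falls joined secreted, membrane and nuclear proteins. CDH1, low by the choice of sign, is also counted among the 15 largest falls. SLCO2A1, a prostaglandin transporter, NID2, the basement membrane protein nidogen 2, HS3ST1, a heparan sulfate sulfotransferase, FGFBP1, a carrier of fibroblast growth factors, and TSPAN13, a tetraspanin, had means between -2.05 and -1.85 and adjusted p between 0.00229 and 0.012. MYC, the growth-promoting transcription factor, had -1.50, -0.98, -2.13 and -1.90 on the 4 arrays, a mean of -1.63 ± 0.18 (adjusted p = 0.00357). Its 2 clones agreed in sign, at -1.32 and -1.94. YBX3, a cold-shock domain protein that binds DNA and RNA, had -1.90, -1.04, -1.84 and -1.72, a mean of -1.63 ± 0.13 (adjusted p = 0.00136). Without Snail replicate 2, 4 of the 15 largest falls lost their call, namely TFF1, PTPRZ1, SLCO2A1 and NID2, and without Snail replicate 1, only TFF1 did.

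**Figure D3:**
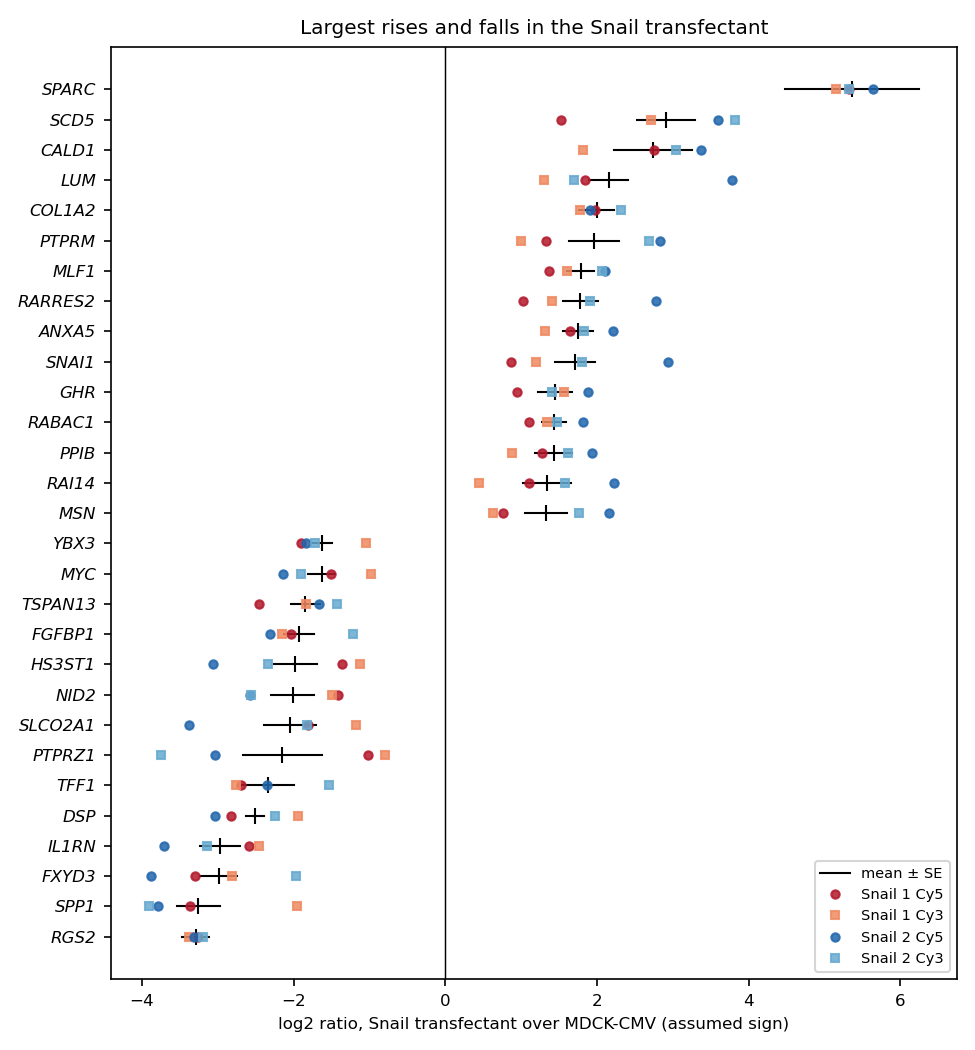
Log2 ratio of Snail transfectant over MDCK-CMV control (horizontal axis, assumed sign) for the 15 largest rises and 15 largest falls (rows). CDH1, among the 15 falls, is left out of the rows. Each array has 1 point, and the mean ± SE of the limma fit is a black bar. SPARC stands alone near 5, RGS2 has its 4 arrays on top of each other, and in PTPRZ1, SCD5 and MSN the Snail 1 and Snail 2 arrays are apart.

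Of 532 genes in 26 lists by function, 66 passed, 28 higher and 38 lower, which is 12.4% of them beside 7.22% of all genes. The lists were drawn up with results of these arrays known, so this share is a description. Of the 79 genes named in these comparisons that passed against the control, 60 lost the call without Snail replicate 2 and 35 without Snail replicate 1. The cell junction lists stand beside 7.22% of all genes called. They held 1 fall among 7 desmosome genes, and 1 rise and 2 falls (with CDH1) among 15 adherens junction and catenin genes. In the desmosome list, DSP alone fell among 7 genes tested. Of the 6 that did not pass, DSG2, a desmosomal cadherin, averaged -1.24 (adjusted p = 0.0643), JUP, the linker plakoglobin, -0.68 (adjusted p = 0.07) and DSC2, another desmosomal cadherin, -0.47 (adjusted p = 0.1), and the median of the list was -0.47. DSG2 had -0.49 and -0.71 on the arrays of Snail 1, and -2.02 and -1.73 on those of Snail 2. Among 15 adherens junction and catenin genes, CTNNA1, the alpha-catenin that ties cadherins to actin, was lower, at -0.86 ± 0.14 (adjusted p = 0.01), and CDH1 is low by the choice of sign. VCL, the actin linker vinculin, was higher at 0.66 ± 0.14 (adjusted p = 0.0306). CDH2, the gene of N-cadherin, averaged 0.08 (adjusted p = 0.808), with arrays from -0.27 to 0.42. None of 6 tight junction, gap junction and polarity genes passed.

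Of 17 keratins and epithelial genes tested, 5 fell and none rose, with a median of -0.45 beside -0.053 for all genes. Among all genes tested, 5.07% were lower and 2.15% higher. FXYD3 and TFF1 are described above. KRT7, a keratin of simple epithelia, had -1.17, -0.87, -0.90 and -1.05 on the 4 arrays, a mean of -0.999 ± 0.14 (adjusted p = 0.00695). KRT16, a keratin of stratified epithelia, averaged -0.82 (adjusted p = 0.0218) and MAL, an apical transport protein, -0.61 (adjusted p = 0.0414). KRT8 and KRT18, the pair of keratins typical of simple epithelia, did not pass and averaged -0.40 (adjusted p = 0.374) and -0.18 (adjusted p = 0.476). EPCAM, an epithelial adhesion molecule singled out after its values were seen, had -0.25 and -0.11 on the arrays of Snail 1 but -3.05 and -2.94 on those of Snail 2, so that its mean of -1.59 did not pass (adjusted p = 0.238).

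Mesenchymal, actin and matrix genes moved both ways, beside 2.15% higher and 5.07% lower among all genes tested. Of 15 mesenchymal and actin genes, SPARC, CALD1, MSN and FN1 rose and THY1 fell, with a median of 0.08. FN1, the matrix protein fibronectin, had 0.69, 0.78, 1.29 and 1.29 on the 4 arrays, a mean of 1.01 ± 0.18 (adjusted p = 0.0161). THY1, a surface glycoprotein of fibroblasts, averaged -0.82 ± 0.13 (adjusted p = 0.00911). Of 33 matrix genes, 5 rose (SPARC, LUM, COL1A2, FN1 and SERPINH1) and 2 fell (SPP1 and BGN), with a median of 0.12. SERPINH1, a chaperone of collagen, averaged 0.97 (adjusted p = 0.00712), but its 2 clones read 0.16 and 1.78. BGN, the proteoglycan biglycan, had -0.79, -0.94, -1.19 and -1.21, a mean of -1.03 ± 0.13 (adjusted p = 0.0046). NID2 was the only one of 6 basement membrane genes to pass.

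The receptors and enzymes that act on matrix gave a few calls each, beside 7.22% of all genes called. ITGA6, an integrin chain for laminin, had -1.54, -1.64, -1.49 and -1.50, with less than 0.2 between arrays, and a mean of -1.54 ± 0.15 (adjusted p = 0.00229). With VCL higher, these were 2 calls among 23 integrin and focal adhesion genes. Among 26 proteases and inhibitors, TIMP1, an inhibitor of metalloproteases, and CTSK, a collagen-cleaving cathepsin, rose by 1.27 and 1.12 (adjusted p = 0.0133 and 0.00331), TIMP1 fitted without E47 replicate 1. MMP14, a membrane metalloprotease, and TIMP3, a matrix-bound inhibitor, were at -1.60 and -1.26 (adjusted p = 0.00173 and 0.00491). MMP14 had -1.91 and -2.69 on the arrays titled Cy5, and -0.98 and -0.80 on those titled Cy3. TIMP1 had 0.16 on Snail 2 Cy3 beside 1.27 to 2.15 on the other 3.

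In signalling lists the calls were scattered, and their counts stand beside 7.22% of all genes called. Of 33 TGF-beta and BMP genes, CCN2, a secreted matrix regulator, alone passed, at 0.60 (adjusted p = 0.0336). Of 28 Wnt genes, FZD7, a Wnt receptor, was higher by 0.54 (adjusted p = 0.0414), and MYC and CCND1, both known Wnt targets, were lower. WNT5A, a Wnt ligand singled out after its values were seen, had 1.62, 1.30, 3.91 and 3.60, and its mean of 2.61 missed the threshold (adjusted p = 0.0512). Of 37 receptor tyrosine kinase and MAPK genes, GRB2, an adaptor, rose by 0.99, SPRY2 by 0.72 and SPRY1 by 0.67, both Sprouty inhibitors of the pathway, while MST1R, a receptor kinase, averaged -0.94. The MST1R clones read 0.01 and -1.91. Of the 11 named genes with several clones, 3 had clones on both sides of 0, namely CDH1, MST1R and CCND1. Of 20 G protein genes tested, those described here are RGS2, which fell, and GNAI1, an inhibitory alpha subunit, which rose by 0.72 (adjusted p = 0.0306). PTPRM rose and PTPRZ1 fell among 13 phosphatases of receptor type.

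Of 46 cell cycle genes, 6 fell and 1 rose, with a median of -0.11. Among all genes tested, 5.07% were lower and 2.15% higher. MYC has been described. CCND1, cyclin D1, had -0.95, -0.86, -1.22 and -0.15 on the 4 arrays, a mean of -0.80 ± 0.12 (adjusted p = 0.00876). Its 3 clones disagreed, with 2 of them averaging -0.97 and -1.33. The other had -0.18 and 0.37 on the arrays of Snail 1, 0.68 on Snail 2 Cy3 and no value on Snail 2 Cy5, so the average on that array rests on fewer clones. The other falls were MCM5, a subunit of the replicative helicase, at -0.95, MAD2L1, a spindle checkpoint protein, at -0.70, CCNB2, a mitotic cyclin, at -0.62 and RRM2, a ribonucleotide reductase subunit, at -0.62. BUB1B, a checkpoint kinase, rose by 0.58 (adjusted p = 0.038). The 39 other genes of the list did not pass.

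The stress, immune and metabolic lists held a few called genes each, beside 7.22% of all genes called. TNFSF10, the death ligand TRAIL, rose by 1.06 (adjusted p = 0.0389) and TNFRSF1B, a TNF receptor, was at -0.83 (adjusted p = 0.00806) among 32 apoptosis genes. Of 39 interferon, antigen presentation and cytokine genes, IL1RN, ISG15 (a ubiquitin-like protein) and CD74 (the invariant chain) fell, and none rose. ATF4, a transcription factor of the stress response, was at -0.95 (adjusted p = 0.00404), and MT1X, a metallothionein, rose by 0.77 (adjusted p = 0.0484). ENO1, a glycolytic enzyme, rose by 0.83, and SLC2A3, a glucose transporter, and HDGF, a heparin-binding growth factor, were at -0.95 and -1.45. Among 19 lipid and nuclear receptor genes, SCD5 and RARRES2 rose, while PPARG, the adipogenic nuclear receptor, averaged -1.16 (adjusted p = 0.00373) and PGR, the progesterone receptor, -1.14 (adjusted p = 0.00691). Further lists gave FXYD3, SLC2A3 and SLCO2A1 as the falls among 16 transport genes, ANXA5 higher and S100A10 lower among 12 annexins and S100 proteins, and RPL31 higher with RPS21 and EEF1D lower among 23 ribosome and translation genes.

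Markers of other cell types were read beside these, and their counts stand beside 7.22% of all genes called. None of 20 leukocyte markers passed, with means from -1.21 (SRGN, a granule proteoglycan) to 0.36 (BTK, a B cell kinase) and a median of -0.02. Of 15 endothelial markers, MCAM, an adhesion molecule, and PLVAP, a protein of vessel wall caveolae, rose by 1.01 and 1.02 (adjusted p = 0.00531 and 0.0258), 13 did not pass, and the median was -0.07. Their part in the other results was not tested.

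**Figure D4:**
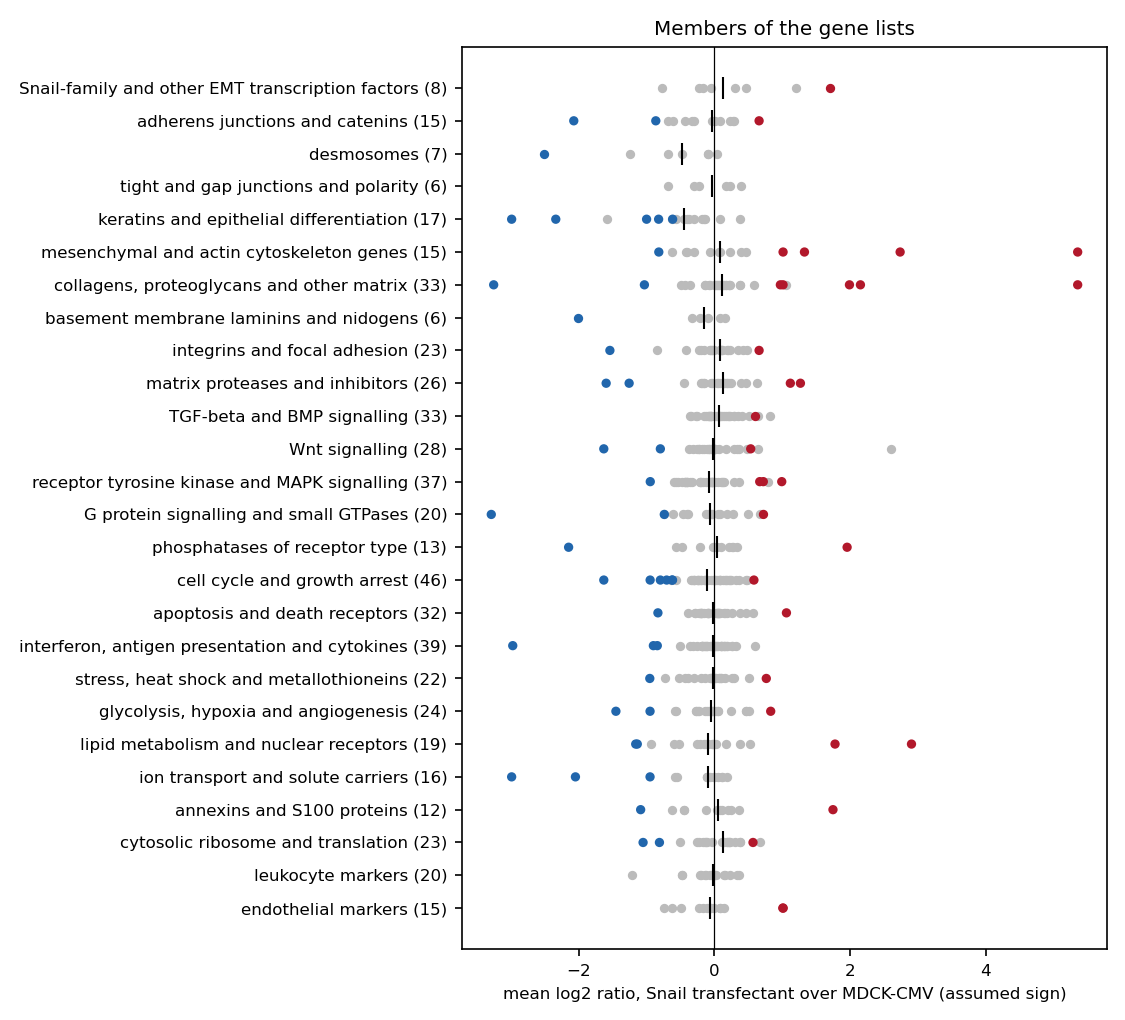
Mean log2 ratio of Snail transfectant over MDCK-CMV control (horizontal axis, assumed sign) of each tested member of 26 gene lists (rows, with the number tested in brackets). Red points were higher and blue points lower at an adjusted p under 0.05, grey points did not pass, and the black bar is the median of the list, which is lowest for desmosomes at -0.47 and keratins and epithelial genes at -0.45.

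The contrast with the other transfectants shows where Snail differed from Slug and from E47 in the same fit. The differences rest on the assumed signs of both groups in a pair, and no probe on the array is named SNAI2. Against Slug, 3675 genes were tested and 486 (13.2%) differed, 150 (4.08%) higher in Snail and 336 (9.14%) lower. With the Snail sign turned, 671 genes would differ from Slug, 363 higher and 308 lower. Against E47, 3617 genes were tested and 93 (2.57%) differed, 6 (0.166%) higher in Snail and 87 (2.41%) lower. With the Snail sign turned, 357 would differ from E47, 195 higher and 162 lower. Of the genes called in Snail against the control, 109 of 268 tested also differed from Slug, and 47 of 264 also differed from E47. The same Snail values enter the calls and the differences, so these shares are not independent of the calls.

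Among the gaps to Slug that passed with replicates that did not overlap, the widest under the assumed sign were mostly in genes that did not pass against the control in Snail. VEGFA, the vascular growth factor, had replicate values of -0.25 and -0.30 in Snail, against 1.91 and 2.07 in Slug, a difference of -2.27 ± 0.18 (SE; adjusted p = 0.00316). BHLHE40, a helix-loop-helix repressor, had -0.13 and 0.15 in Snail, against 2.23 and 2.50 in Slug, a difference of -2.36 (adjusted p = 0.00466). CDKN1A, the cell cycle inhibitor p21, had 0.26 and 0.04 in Snail, against 2.40 and 2.29 in Slug, a difference of -2.19 (adjusted p = 0.0388). In these 3 genes the Snail replicates lay within 0.3 of 0. PATL1, a factor of mRNA decay, had -0.24 and -0.65 in Snail, and SIRPA, a receptor for CD47, had 0.06 and 0.12. They differed from Slug by -2.50 and -2.38. Only SRSF4, HDGF and MACIR among the 8 widest gaps also fell against the control in Snail. On the other side, ATP4A, a subunit of the gastric proton pump, had 0.46 and -0.24 in Snail, against -2.44 and -2.21 in Slug, a difference of 2.43 (adjusted p = 0.00416). NSF, an ATPase of membrane fusion, SAR1B, a GTPase of vesicle budding, TMEM258, a subunit of the glycosylation complex, MRPL1, a mitochondrial ribosomal protein, SLC44A1, a choline transporter, TRMT11, a tRNA methyltransferase, and NSMCE2, a SUMO ligase fitted without E47 replicate 1, differed by 1.69 to 1.92. None of these 8 passed against the control in Snail, but the Snail replicates were apart in some. NSMCE2, MRPL1, TMEM258 and SLC44A1 had 0.84 to 1.22 in Snail replicate 2 and -0.26 to 0.22 in replicate 1. ATP4A and NSF had the larger value in replicate 1. SPARC, with a wider difference of 3.60, did not pass (adjusted p = 0.0951). With the Snail sign turned, the widest gaps to Slug would be in SPARC, at -7.11 (adjusted p = 0.00798), and SPP1, at 7.04 (adjusted p = 9.09e-05).

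Among the gaps to E47 that passed under the assumed sign, the widest was in GAS1, a growth arrest protein of the cell surface. With the Snail sign turned, the widest would be in SPARC, at -10.05 (adjusted p = 0.0028), and RGS2, at 6.796 (adjusted p = 1.97e-05). GAS1 had 0.19 and 0.25 in the Snail replicates, against 3.20 and 2.70 in E47, a difference of -2.73 ± 0.21 (adjusted p = 0.00538). ITGA7, another laminin receptor chain, had 0.32 and -0.15 in Snail, against 1.82 and 2.41 in E47, a difference of -2.03 (adjusted p = 0.0202). EPS8, an actin-capping protein, had -1.70 and -0.54 in Snail, against 0.72 and 1.16 in E47, a difference of -2.06 (adjusted p = 0.0335). GAS1 and ITGA7 were close to the control in Snail, while EPS8 was below it. Only 6 genes were higher than in E47. LUM had 1.57 and 2.74 in Snail, against 0.06 and 0.44 in E47, a difference of 1.91 (adjusted p = 0.0421), and it was lower than the 3.73 and 4.12 of Slug by 1.77 (adjusted p = 0.0224). The other 5 were PLAU, the urokinase protease (1.41), PCLAF, a PCNA-binding protein (1.05), GPNMB, a membrane glycoprotein (1.04), COX7A2, a subunit of cytochrome oxidase (0.98), and TUBA3C, an alpha-tubulin (0.85).

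Of 3537 genes tested in all 3 comparisons, 36 (1.02%) were lower in Snail than in the control, in Slug and in E47, and 1 (0.0283%), GPNMB, was higher than in all of them. With the Snail sign turned, 55 would be lower than in all of them and 119 higher. The 36 were chosen on the calls against the control and on the differences from Slug and from E47. Their sides of 0 in the 3 transfectants therefore follow in part from that choice. All 36 lay below 0 on all 4 Snail arrays, with Snail means from -2.51 to -0.54, and 28 had means above 0 in both Slug and E47. HDGF had -1.61 and -1.29 in Snail, against 0.98 and 0.85 in Slug and 0.64 and 0.84 in E47, so Snail lay below the control and the others above it. CCND1 had -0.91 and -0.69 in Snail, against 0.73 and 0.66 in Slug and 0.70 and 0.76 in E47, as the average of clones that disagree in Snail. GDI2, which holds Rab GTPases in the cytosol, had -0.79 and -0.41 in Snail, against 1.28 and 1.30 in Slug and 0.92 and 1.11 in E47. In HDGF, CCND1 and GDI2 alike, both other transfectants passed on the side opposite to Snail. GPNMB had 0.93 and 1.21 in Snail, against -0.20 and -0.25 in Slug and 0.15 and -0.08 in E47.

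Other members of the 36 fall into a few roles. DSP was lower in all 3 transfectants and lowest in Snail, with -2.38 and -2.64, against -1.63 and -1.71 in Slug and -0.63 and -0.71 in E47. ITGA6 had -1.59 and -1.49 in Snail, against -0.55 and -0.08 in Slug and 0.45 and 0.74 in E47. MYC had -1.24 and -2.02 in Snail, against 0.01 and -0.18 in Slug and 0.22 and 0.22 in E47, where it did not differ from the control beyond the test (adjusted p = 0.768 and 0.576). RNA-binding and translation factors among the 36 were SRSF4 and SRSF9, both splicing factors, CNBP, RBM14, YBX3, BTF3 and EEF1D. SRSF4 had -1.08 and -1.50 in Snail, against 1.42 and 1.00 in Slug and 0.89 and 0.62 in E47. Ubiquitin pathway members were CUL3, UBE2G1, USP12, RNF19B and UFD1, with Snail means from -0.85 to -0.65. Cytoskeletal and GTPase members were ARPC1B, of the actin-nucleating complex, RAP1A, a small GTPase of adhesion, CDC42SE2 and GDI2. The other 15 were BGN, S100A10, CXorf1, UBN1, MACIR, MED17, LEMD3, VBP1, ITPRID2, ANP32B, PRKXP1, GTF3C2, PTPN12, LYPLA2 and NDC1. These roles were read off after the members were known and carry no test.

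**Figure D5:**
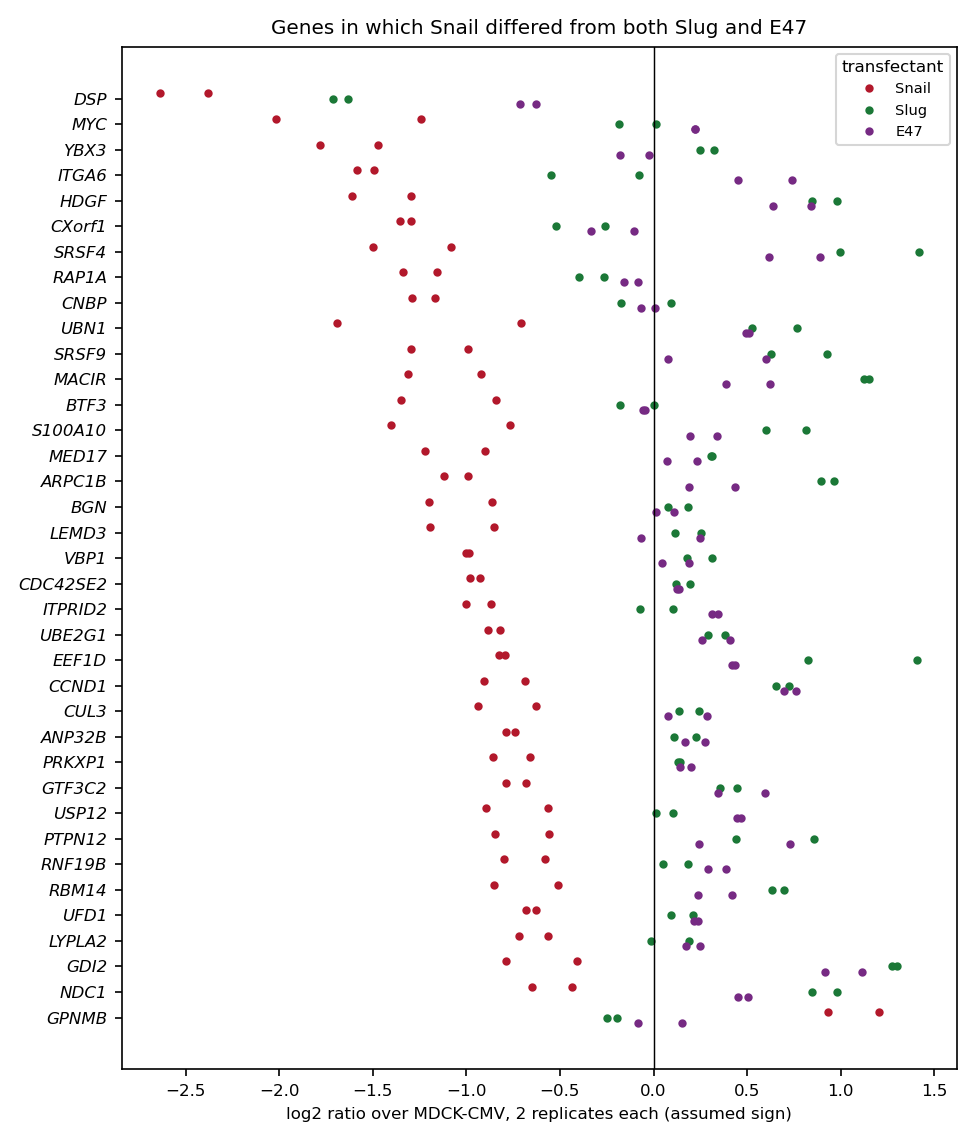
Log2 ratio over MDCK-CMV (horizontal axis, assumed sign) in the 2 replicates each of Snail, Slug and E47 for the 37 genes in which Snail differed from the control and from both other transfectants (rows). The Snail points lie left of 0 and left of the others in 36 genes, and right of them in GPNMB at the bottom.

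Leaving out a replicate leaves 1 sample in that transfectant, which is then assumed to vary like the others. Against Slug the count was 141 without Snail replicate 1, 138 without Snail replicate 2 and 221 without Slug replicate 1. Against E47 it was 13 without Snail replicate 1, 14 without Snail replicate 2, 42 without E47 replicate 1 and 3 without E47 replicate 2. The arrays titled Cy3 alone gave 1 gene against E47 and 56 genes against the control.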

How the data were processed

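The deposited values are log2 ratios of the 2 channels per probe, with array medians between -0.0634 and 0.0594 on the Snail arrays. The log base was checked on values below -0.5, which match ratios rounded to thousandths to 0.00006 log2 units. For the scanner, the background correction and the normalization, the method is not given in the sources used here. Spot brightness was not used here, and precision is limited by how many arrays there are. Genes were named from the platform annotation (8047 probes with 1 symbol, 276 with several, 4733 with none), and only probes with 1 symbol entered, giving 4325 genes, 527 of them with several clones; 4012 of these symbols also stand in the dog RefSeq table.

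Arrays of Slug and E47 were turned to a common sign by their leading eigenvector without CDH1, then set so that CDH1 was low. Replicates, both arrays needed, were fitted with limma 3.58.1 in R 4.3.3: no intercept, 6 replicates of 3 transfectants with a common spread (3 residual degrees of freedom, prior 4.85, prior SD 0.203), two-sided, Benjamini-Hochberg over all genes tested. A test of ratios against 0 holds no spread of the control itself. The scripts were tested on simulated data. The genes named are the 15 largest rises and falls among called genes on 1 side of 0 on all 4 arrays, every called list member apart from 1 of the G protein list, which is not reported here, the 8 widest differences that passed in each direction per pair with replicates that do not overlap, and clones that disagree in sign. The members, lists and tests were chosen with earlier results of these data known. No promoter sequence was at hand, so the planned search for E-box motifs was not run.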

Additional observations from a re-analysis of the deposited data

Results flagged for a closer look

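In 2 of 75 genes checked, ISG15 and CD74, 1 of the 4 Snail arrays was flagged as standing apart from the rest. How often chance would give such a flag was not tested. Some genes described above with 1 array apart, such as SPP1, were not flagged. Both flags were on Snail 2 Cy5. ISG15 was at -1.61 there, against -0.55, -0.72 and -0.71 on Snail 1 Cy5, Snail 1 Cy3 and Snail 2 Cy3. CD74 was at -1.75 there, against -0.54, -0.57 and -0.50.

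Among the 15 largest rises and falls, these differed between transfectants in the fit. DSP was lower in Snail than in Slug by -0.84 (adjusted p = 0.0231, limma) and than in E47 by -1.84 (adjusted p = 0.00805). MYC differed by -1.55 from Slug (adjusted p = 0.0127) and by -1.85 from E47 (adjusted p = 0.0205). YBX3 differed by -1.91 from Slug (adjusted p = 0.00322) and by -1.53 from E47 (adjusted p = 0.0132). TFF1 was at -2.73 and -1.95 in Snail, against -0.31 and -0.53 in Slug, a difference of -1.92 (adjusted p = 0.0375). HS3ST1 was at -1.25 and -2.70 in Snail, against -0.12 and -0.16 in Slug, a difference of -1.84 (adjusted p = 0.0263). TSPAN13 differed from Slug by -1.004 (adjusted p = 0.0465).

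Higher in Snail than in Slug were MLF1 by 1.44 (adjusted p = 0.0179), RARRES2 by 1.64 (adjusted p = 0.0218) and ANXA5 by 1.22 (adjusted p = 0.0318). RARRES2 was at 1.22 and 2.35 in Snail, against 0.15 and 0.13 in Slug. LUM lay between the others, -1.77 from Slug (adjusted p = 0.0224) and 1.91 from E47 (adjusted p = 0.0421).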

How the results depend on the processing

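The count of 272 genes called in Snail against the control ranged from 34 to 345 when 1 replicate of any transfectant was left out, the 81 higher genes from 2 to 101 and the 191 lower genes from 32 to 244. The count against Slug, 486, ranged from 138 to 389, and that against E47, 93, from 3 to 137. Of the 34 genes called without Snail replicate 2, 32 were among the 272, and of the 105 without replicate 1, 89 were. With the spread taken from Snail alone 568 genes passed, 197 higher and 371 lower, and all 272 were among them. That fit has only the 2 Snail replicates of each gene. PTPRZ1, with replicates of -0.91 and -3.39, had a far smaller adjusted p there than its 0.0483 in the main limma fit. The spread of a single gene thus weighed little in it, and recovery of the 272 is no separate check of them. Arrays titled Cy3 alone gave 56 genes (17 higher, 39 lower), 88 against Slug and 1 against E47; arrays titled Cy5 alone gave 265 against Slug and 39 against E47. Arrays scaled to 1 spread gave 310 against Slug and 184 against E47. With the Snail sign turned the calls were 191 higher and 81 lower. The pairs with the sign turned (357 genes against E47) and the fit without Slug (345 genes) were added after the data were seen. Centring, accepting 1 of 2 arrays, the median of clones and each clone on its own moved no count by over 1.5 times. Of 79 named genes called against the control, 60 lost the call without Snail replicate 2, 35 without replicate 1, 51 on Cy3 arrays alone and 11 on Cy5 arrays alone, and none changed direction in any setting that kept the Snail sign. With the replicate number as a block, 294 genes passed (519 against Slug, 101 against E47). The deviations of same-numbered samples correlated at 0.02 for Snail and Slug, 0.23 for Snail and E47 and -0.06 for Slug and E47. Whether the numbers pair the samples was not tested. The causes were not tested.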

Other observations

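Of the genes called in Snail against the control, 33 changed at least 2-fold without falling under the naming rule or differing from both other transfectants. They were taken as a whole, after the values were seen. Of these, 20 fell. PLSCR1, a membrane protein that binds phospholipids, had -1.67, -1.38, -1.17 and -2.04 on the 4 Snail arrays, and PAWR, a pro-apoptotic regulator, had -1.25, -1.48, -1.85 and -1.47, so both were at least 2-fold down on every array. ODC1, the first enzyme of polyamine synthesis, had -1.35, -1.28, -1.03 and -0.89. SEMA3C, a secreted guidance protein, averaged -1.26 (adjusted p = 0.00229, limma), PSMB5, a catalytic proteasome subunit, -1.33 (adjusted p = 0.00918), and AGPS, an enzyme of ether lipid synthesis, -1.17 (adjusted p = 0.00229). Kinases and adaptors among the falls were PIK3CB, PAK2, MAP3K5 and DOK4, with means from -1.13 to -1.002. PTPN3, a cytosolic phosphatase, was uneven, at -1.81 and -1.66 on the arrays of Snail 1 and -0.48 and -0.55 on those of Snail 2.

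The 13 rises included CTSV, a cathepsin, with 0.98, 0.79, 1.61 and 1.47 on the 4 arrays, OCRL, a phosphoinositide phosphatase, with 0.76, 0.90, 1.81 and 1.59, and SERINC1, a membrane protein, with 1.04, 0.78, 1.58 and 1.69. In these 3 both arrays of Snail 2 lay above both of Snail 1. TUBA1A, an alpha-tubulin, ran the other way, with 1.47 and 1.36 on the arrays of Snail 1 and 0.94 and 0.80 on those of Snail 2. Proteins of the secretory route were RCN1, MAN1A1, GOLM2 and POGLUT3, with means from 1.06 to 1.27.

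Some of the largest Snail ratios came from probes with no gene symbol. Of 2833 such probes with a value on all 4 Snail arrays, 22 (0.777%) were at least 2-fold higher on every array and 10 (0.353%) at least 2-fold lower. Of 6648 probes with a symbol, 19 (0.286%) were at least 2-fold higher on every array and 42 (0.632%) lower. At the 4-fold mark, 8 unnamed probes (0.282%) were higher and 0 lower, against 1 (0.015%) and 7 (0.105%) of the named ones. The top 7 had means of 3.66 to 4.61 in Snail, against 3.52 to 4.28 in Slug and 0.97 to 1.52 in E47, and 1 named probe, that of SPARC, reached 3.66. The eighth was at 2.58 in Snail, 1.12 in Slug and -0.29 in E47. The highest, probe 10609, had 4.78, 4.06, 5.27 and 4.32 on the 4 Snail arrays. Its E47 mean joins samples that were apart, at -0.04 and 0.67 on E47 1 and 2.08 and 2.73 on E47 2. Probes 10865, 10593, 10337, 1018 and 11983 were split the same way, with both E47 2 arrays above the E47 1 values. Probe 13032 was more even in E47, at 1.31 to 1.64. Whether some of the unnamed probes are spots of 1 clone was not tested.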
